A study of Mus musculus with 6 samples.

Results

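Alternative promoters were examined in H3K4me3 ChIP-Seq peak lists of mouse striatal progenitor cells. The genes described are protein-coding genes of chromosomes 1 to 19 with at least 2 annotated transcript starts that lay over 5 kb apart and were covered by different peaks of the mutant vehicle list, Q111SST. There were 667 such genes among 10946 protein-coding genes with any covered start in that list (6.09%), and among 20780 annotated protein-coding genes on these chromosomes. For each gene, the most 5′ covered start and its peak are called the upstream promoter, and the most 3′ covered start and its peak the downstream promoter. The genes were chosen by the presence of peaks over starts in Q111SST. Because of this choice, both promoters had a peak there by construction, values in Q111SST are a description, and a promoter could only be lost in the other 5 lists.

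The cells were STHdh cells, mouse striatal progenitor lines of C57BL/6 strain that carry wild-type huntingtin (STHdhQ7, spelled STHdh7 in the sample label) or the polyglutamine-expanded form (STHdhQ111). All cells were kept without serum for 24 h. Q7SST was the wild-type line with vehicle, Q111SST was the mutant line with vehicle, and the other 4 lists came from the mutant line with 10 uM cyproheptadine, loxapine, DKI (diacylglycerol kinase inhibitor II) or meclizine. There was 1 peak list per condition, so genotype cannot be told apart from cell line or library, no replicate spread was available and no test between conditions was made. Treatment was described as being in triplicate, and whether replicates were pooled into a list was not stated. Shares carry 95% Wilson intervals, which cover counting error only and treat genes as independent. In bulk chromatin, fewer cells with a mark and less mark per cell cannot be told apart.

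Trimethylation of lysine 4 of histone H3 marks nucleosomes around active and poised transcription starts. A gene with several promoters can make transcripts that differ in their first exon, and thereby in the start of the protein, in the leader that governs translation, or only in when and where the gene is expressed. Many mammalian promoters overlap CpG islands, stretches in which the CG dinucleotide has not been depleted, whereas others are poor in CG and more often restricted to particular cell types.

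Sequences of 4 genes, read from the reference genome (GRCm38), show how different both promoters of a gene could be. Each stretch is the 150 bases just before the start, on the strand of the gene, with every CG in capitals. The genes belong to those with a promoter covered in all 5 mutant lists and not in Q7SST, and these 4 were picked after their values were seen. For Tdrd7 (tudor domain protein of RNA granules), the promoter not covered in Q7SST was the upstream one, on the plus strand at chr4:45965184-45965333. It held 0 CG and the letters TATAAA with their first base 28 bases before the start, counted as -28, whereas the downstream stretch at chr4:45972083-45972232 held 18 CG and no TATAAA.
Tdrd7 upstream promoter: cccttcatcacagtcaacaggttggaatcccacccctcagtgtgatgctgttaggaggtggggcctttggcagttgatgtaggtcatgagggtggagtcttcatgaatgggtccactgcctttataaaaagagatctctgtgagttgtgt
Tdrd7 downstream promoter: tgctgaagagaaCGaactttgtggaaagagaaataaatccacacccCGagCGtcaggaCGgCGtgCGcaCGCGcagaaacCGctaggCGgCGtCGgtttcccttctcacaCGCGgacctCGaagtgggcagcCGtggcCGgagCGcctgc
For Gramd1c (a sterol transport protein of membrane contact sites), Arhgap28 (a GTPase-activating protein) and Amz2 (a metallopeptidase), the downstream promoter was the one without a peak over its start in Q7SST. The Gramd1c stretches lay on the minus strand at chr16:44063346-44063495 (upstream, 15 CG) and chr16:44016437-44016586 (downstream, 5 CG).
Gramd1c upstream promoter: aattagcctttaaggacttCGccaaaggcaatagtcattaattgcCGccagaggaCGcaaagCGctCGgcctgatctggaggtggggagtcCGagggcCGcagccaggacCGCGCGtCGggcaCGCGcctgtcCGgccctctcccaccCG
Gramd1c downstream promoter: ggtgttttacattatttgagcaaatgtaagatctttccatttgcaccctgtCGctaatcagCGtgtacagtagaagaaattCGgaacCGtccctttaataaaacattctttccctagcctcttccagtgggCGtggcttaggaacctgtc
Arhgap28 lay on the minus strand, with 11 CG upstream (chr17:68004121-68004270) and 3 CG downstream (chr17:67950941-67951090).
Arhgap28 upstream promoter: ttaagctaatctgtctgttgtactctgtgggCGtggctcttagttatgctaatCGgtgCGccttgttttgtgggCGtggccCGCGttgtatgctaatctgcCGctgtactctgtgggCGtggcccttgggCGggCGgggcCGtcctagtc
Arhgap28 downstream promoter: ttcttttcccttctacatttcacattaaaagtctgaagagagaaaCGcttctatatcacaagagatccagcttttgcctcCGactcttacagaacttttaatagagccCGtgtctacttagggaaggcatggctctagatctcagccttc
Amz2, on the plus strand, is shown as a counter-example, and it was not the only one. In Sept9 and Rapgef2, whose stretches are not printed, the upstream promoter was the one not covered in Q7SST. It held 7 CG in Sept9 and 3 in Rapgef2, against 2 and 1 in the downstream stretch. Its upstream stretch (chr11:109425796-109425945) held 10 CG and its downstream stretch (chr11:109440006-109440155) 12 CG, so that the promoter without a peak in Q7SST was as rich in CG as the other.
Amz2 upstream promoter: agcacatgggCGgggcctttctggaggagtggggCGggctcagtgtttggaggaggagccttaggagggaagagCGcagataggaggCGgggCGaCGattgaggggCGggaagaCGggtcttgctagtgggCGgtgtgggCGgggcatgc
Amz2 downstream promoter: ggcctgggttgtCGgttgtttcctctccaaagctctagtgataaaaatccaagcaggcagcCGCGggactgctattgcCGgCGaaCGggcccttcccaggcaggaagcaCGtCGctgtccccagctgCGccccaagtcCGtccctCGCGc

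As a check of the cell type, starts of marker genes were compared with the lists. The progenitor markers Vim and Fabp7 were covered in all 6 lists, Sox11 in none and Nes only in Q7SST. Pax6 was covered in Q7SST, Q111SST and meclizine, and Sox2 in cyproheptadine and loxapine. Of 6 striatal neuron genes, Ppp1r1b, Adora2a and Bcl11b were covered in Q7SST, Ppp1r1b alone in Q111SST and 0 under any compound, and Drd1, Drd2 and Gad1 were covered in no list. Of 4 astrocyte genes Slc1a3 was covered in all 6 lists and Gfap, Aqp4 and Aldh1l1 in none, and 0 of 5 microglial genes in any. Of 5 oligodendrocyte genes only Mbp was covered, under meclizine, and of 4 endothelial genes Kdr was covered in all lists and Tek in Q111SST. List lengths ran from 30758 peaks under DKI to 45564 under loxapine, and the read depth behind them was not known. Strength is therefore given as the percentile of a peak's score among all peaks of its own list.

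Of the 667 genes, 593 had exactly 2 separately marked promoters in Q111SST, 63 had 3 and 11 had at least 4. The outer starts lay a median of 29.9 kb apart (quartiles 12.05 to 75.6 kb), and up to 1762 kb in Ptprd. Just inside the distance limit were Abhd4 (5119 bp), Dok4 (5126 bp) and Akip1 (5143 bp), and just outside it Per1 (4941 bp), Asl (4947 bp) and Park7 (4954 bp). The Q111SST percentiles of the upstream and downstream promoters were 92.8 and 94.9 for Abhd4, 73.6 and 68.5 for Dok4 and 68.5 and 27.6 for Akip1. They were 70.7 and 54.7 for Per1, 97.7 and 98.5 for Asl and 91.4 and 77.6 for Park7. The genes were long and heavily annotated, with a median of 8 annotated starts over 80.4 kb, against 5 starts over 22.2 kb for the other marked genes. Of the 6243 marked genes with any starts over 5 kb apart, 10.7% qualified.

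Annotation set the promoters apart in what they could encode. A protein-coding transcript began at the upstream promoter in 596 genes (89.4%) and at the downstream promoter in 478 (71.7%). Among the 400 genes whose first codon was annotated on both sides, 217 used different first codons and 183 shared one. The principal transcript in the annotation began only upstream in 310 genes, only downstream in 168, at both in 88 and at neither in 101. The upstream peak also covered the start of another coding gene in 169 cases and the downstream peak in 29, and for these a mark cannot be assigned to either gene. In 488 genes (73.2%) neither peak was shared in this way.

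Base composition also set the promoters apart. In a window of 300 bases, from 250 before the start to 50 from it, upstream promoters had a median GC content of 63.0% and a median CpG ratio (observed over expected CG) of 0.744. Downstream promoters had 53.7% and 0.441. A window with at least 50% GC and a ratio of at least 0.6 is called CpG-rich. By this measure 450 upstream promoters (67.5%, interval 63.8% to 70.9%) and 203 downstream promoters (30.4%, 27.1% to 34.0%) were CpG-rich. Among 10365 promoters of the other coding genes the share was 69.5%, and among 2730 starts of the same genes with no peak it was 11.9%. Upstream promoters thus resembled those of other marked genes in this measure, and downstream promoters lay between them and starts without a mark.

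**Figure D1:**
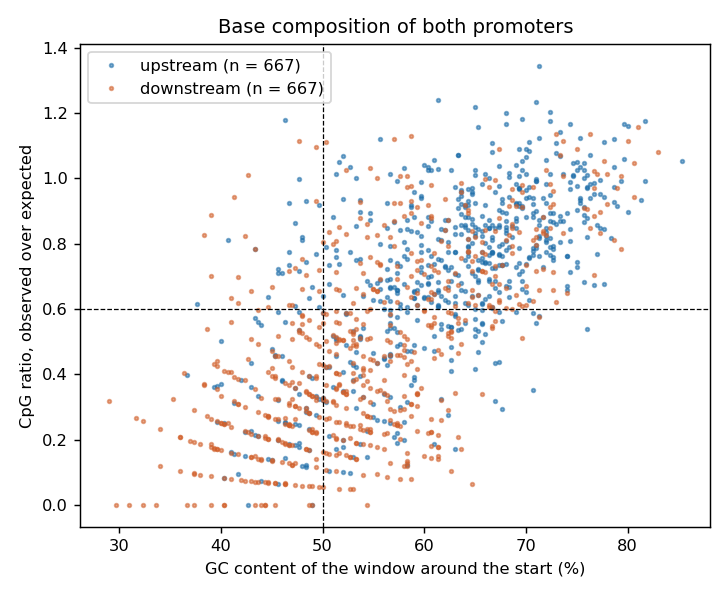
GC content (x axis, percent) against the CpG ratio (y axis, observed over expected) of the 300-base window at each promoter of the 667 genes, with upstream promoters in blue and downstream promoters in orange. Dashed lines mark 50% GC and a ratio of 0.6, and 67.5% of upstream against 30.4% of downstream promoters lay at or beyond both.

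The letters TATAAA, read on the strand of the gene, were found in the window of 28 upstream promoters (4.20%) and 32 downstream promoters (4.80%), against 4.29% of all 11789 promoters of coding genes in Q111SST. In the starts of the same genes with no peak the share was 8.46%. Read on either strand, they were found in 46 upstream (6.90%) and 58 downstream promoters (8.70%), against 7.03% of all promoters and 14.9% of starts with no peak. Windows that were at least 50% repeat-masked made up 0.900% of upstream and 1.65% of downstream promoters. Neither feature set the promoters apart as CpG content did. A match of letters is a description and not evidence of a bound factor.

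The question set by the comparison of promoters was which end of the gene carried the stronger peak, and whether this held in each list. In Q111SST the upstream promoter had the higher percentile in 395 genes (59.2%, 55.4% to 62.9%), with a median percentile of 77.6 upstream and 71.1 downstream. In Q7SST it was the stronger in 273 of the 475 genes with both promoters covered (57.5%, 53.0% to 61.8%). The shares with the compounds were 56.5% for cyproheptadine (51.7% to 61.2%), 58.4% for loxapine (54.1% to 62.7%), 55.9% for DKI (51.2% to 60.4%) and 57.4% for meclizine (53.3% to 61.5%). All 6 intervals overlapped. The median difference, upstream minus downstream, was small in every list, from 3.20 percentile points in Q7SST to 5.86 in Q111SST. Upstream peaks were also wider, with medians from 1519 bp (DKI) to 1851 bp (Q111SST) against 1323 to 1552 bp downstream.

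The excess of stronger upstream promoters depended on which transcripts counted as starts. With starts of protein-coding transcripts only, the share was 52.6% in Q111SST (47.9% to 57.2%) and 50.9% in Q7SST (45.5% to 56.3%), and both intervals included 50%. In the 424 genes with coding transcripts at both promoters the upstream promoter was stronger in 53.3% in Q111SST, compared with 77.9% in the 172 genes with coding transcripts upstream only. With a stricter score threshold the share was 48.5% for cyproheptadine, the reverse direction, with an interval of 42.2% to 54.9%.

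**Figure D2:**
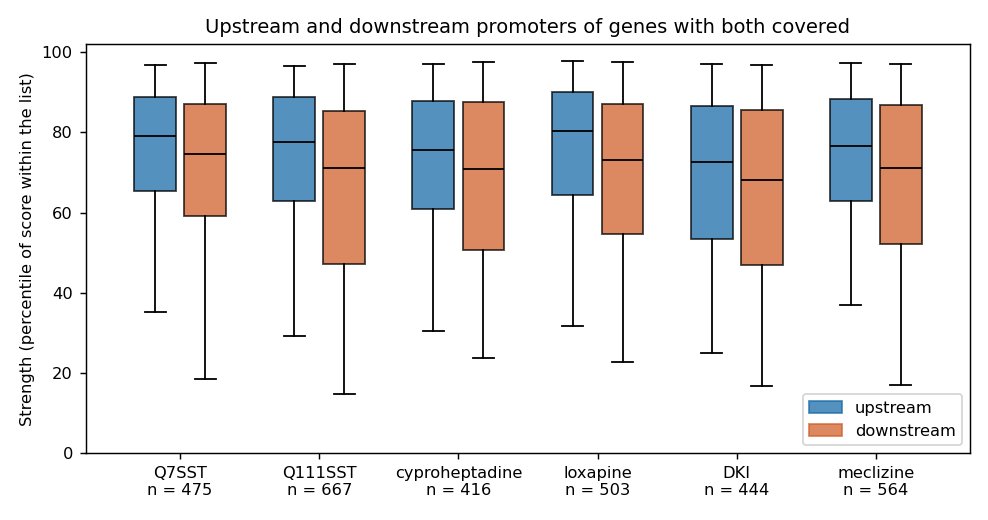
Strength (y axis, percentile of the score within the list) of upstream promoters in blue and downstream promoters in orange in the 6 lists (x axis), for genes with both promoters covered in that list, n under each name. Boxes span the quartiles, lines are medians and whiskers reach from the 5th to the 95th percentile of genes. The upstream median was above the downstream median in each list, 79.0 against 74.5 in Q7SST and 77.6 against 71.1 in Q111SST, and the boxes overlapped.

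Strength followed CpG content within a gene. In the 317 genes with a CpG-rich upstream and a CpG-poor downstream promoter, the upstream peak was stronger in 70.0% in Q111SST and 65.7% in Q7SST. In the 70 genes with the reverse arrangement it was stronger in 31.4% and 39.7%. Where both promoters were CpG-rich (133 genes) the share was 52.6% in Q111SST, and where both were CpG-poor (147 genes) it was 55.1%. The Q111SST shares come from the list that chose the genes and are given as a description. Across genes, the percentiles of both promoters were only weakly related, with a Spearman correlation of 0.128 in Q111SST over 667 genes and 0.203 in Q7SST over 475. The points of such a correlation share a library.

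Peaks over the starts were then followed in the lists that did not choose the genes. Both promoters were covered in 475 genes in Q7SST (71.2%), 416 under cyproheptadine (62.4%), 503 under loxapine (75.4%), 444 under DKI (66.6%) and 564 under meclizine (84.6%). In Q7SST the upstream promoter had no peak over its start in 64 genes (9.60%, 7.59% to 12.1%) and the downstream promoter in 142 (21.3%, 18.4% to 24.6%). The background, the share of all 11789 Q111SST promoters of coding genes without a peak in Q7SST, was 7.10%. Downstream promoters were thus missing from Q7SST more often than upstream promoters, and their interval lay above that of upstream promoters.

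With cyproheptadine, 137 upstream (20.5%) and 152 downstream promoters (22.8%) had no peak, against a background of 14.3%. For loxapine the counts were 86 (12.9%) and 88 (13.2%), against 8.98%. DKI lacked 104 upstream (15.6%) and 145 downstream promoters (21.7%), against 11.3%. Meclizine lacked 37 (5.55%) and 71 (10.6%), against 3.53%. Upstream and downstream intervals overlapped for cyproheptadine and loxapine, and did not for DKI and meclizine. The 4 compound lists are all set against the same Q111SST list.

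**Figure D3:**
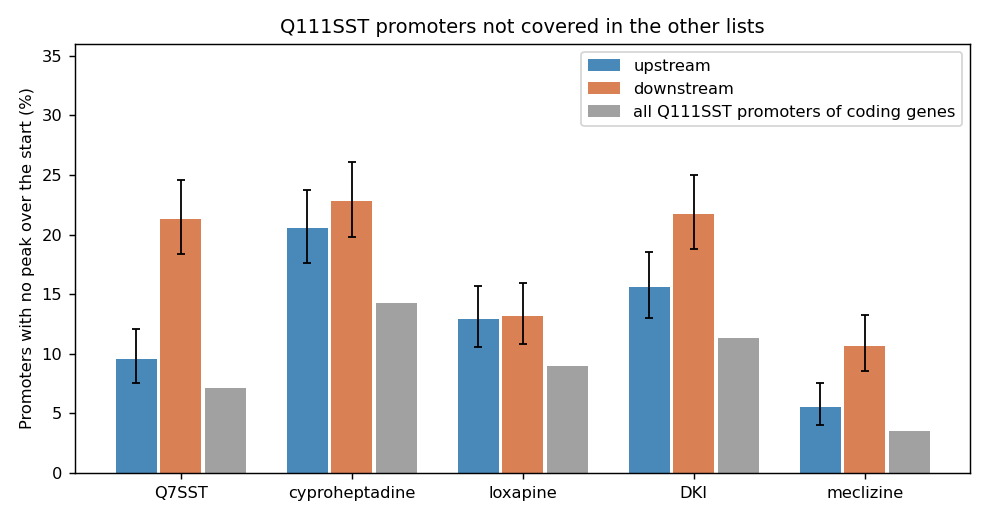
Share of promoters with no peak over the start (y axis, percent) in each list other than Q111SST (x axis), for upstream (blue) and downstream (orange) promoters of the 667 genes and for all 11789 Q111SST promoters of coding genes (grey). Error bars are 95% Wilson intervals, and the widest gap between upstream and downstream bars was in Q7SST, 9.60% against 21.3%.

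A start without a peak often had one close by. Of the promoters not covered in Q7SST, 34 upstream and 96 downstream promoters had no peak within 1 kb, so that 14.4% of downstream promoters had none, against 3.66% of all promoters. With loxapine, 72 of the 86 upstream promoters that were not covered had a peak within 1 kb, and 14 had none. The corresponding numbers with no peak within 1 kb were 39 upstream and 83 downstream under cyproheptadine (12.4% downstream, against 4.42% of all promoters) and 21 downstream under loxapine (3.15%, against 1.44%). They were 30 and 72 under DKI (10.8% downstream, against 3.57%) and 13 and 29 under meclizine (4.35%, against 0.959%). By this stricter measure downstream promoters had the higher number over all strengths in each of the 5 lists.

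Because downstream promoters were weaker in Q111SST, the same counts were made within bands of Q111SST strength. Between the 50th and 75th percentile, 44 of 203 downstream promoters (21.7%, 16.6% to 27.8%) had no peak in Q7SST, compared with 17 of 205 upstream promoters (8.29%, 5.24% to 12.9%) and 174 of 2421 promoters of other genes (7.19%). Between the 25th and 50th percentile the shares were 42.2% downstream, 24.6% upstream and 25.5% in other genes. Between the 75th and 100th percentile they were 3.21%, 3.53% and 2.42%. Below the 25th percentile they were 58.8% (40 of 68), 68.0% (17 of 25) and 46.6%. Downstream promoters had a higher share than upstream ones between the 25th and 75th percentile, and than other genes in each band, with intervals separate from both only between the 50th and 75th. In the 50th to 75th percentile, the compounds showed 15.8% downstream and 18.05% upstream for cyproheptadine (14.5% in other genes), 6.90% and 12.2% for loxapine (8.22%), 14.8% and 12.2% for DKI (11.1%) and 5.42% and 3.41% for meclizine (2.02%). Above the 75th percentile the upstream share was the higher under each compound, at 11.4% (8.56% to 15.1%) against 4.29% (2.47% to 7.34%) for cyproheptadine, 8.42% against 5.36% for loxapine, 8.70% against 3.93% for DKI and 1.90% against 1.43% for meclizine. The shares in other genes were 7.31%, 5.86%, 5.20% and 1.18%, which lay between those of both sides for the first 3 compounds. Upstream and downstream intervals were separate for cyproheptadine only. All upstream and downstream promoters above the 75th percentile had a peak within 1 kb in each compound list. Among promoters of other genes in this band, 1 under loxapine and 2 under DKI had none. The downstream excess seen over all promoters under DKI and meclizine was thus not present among the strongest ones. No Q7SST peak within 1 kb was found for 51.5% of downstream and 48.0% of upstream promoters below the 25th percentile (34.8% in other genes), 12.3% and 2.44% in the 50th to 75th band (3.47%) and 2.14% and 1.09% above the 75th (0.591%). By that measure, between the 25th and 50th percentile the upstream share was the higher under cyproheptadine (26.1% against 21.6%), loxapine (4.35% against 3.45%) and DKI (21.7% against 14.7%), and below the 25th under loxapine (10 of 25 against 17 of 68) and meclizine (44.0% against 36.8%). The higher number of downstream promoters without a nearby peak was thus not seen in each band under the compounds.

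**Figure D4:**
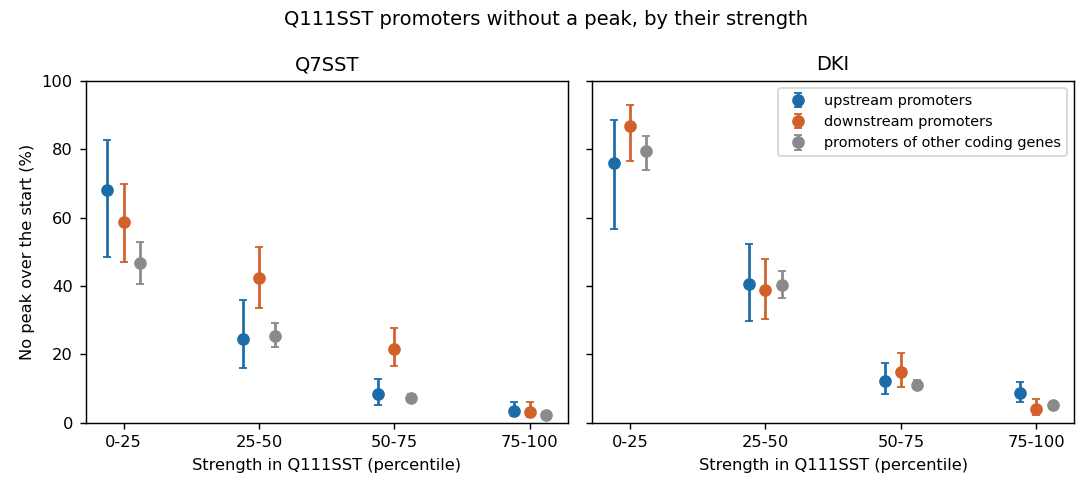
Share of Q111SST promoters with no peak over the start (y axis, percent) in Q7SST (left) and under DKI (right), by band of strength in Q111SST (x axis, percentile), for upstream (blue), downstream (orange) and other coding genes' promoters (grey). Bars are 95% Wilson intervals, and in Q7SST the downstream share stood above the others between the 50th and 75th percentile (21.7% against 8.29% and 7.19%).

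The promoters that Q7SST lacked were more often CpG-poor. Among CpG-poor promoters, 131 of 464 downstream (28.2%) and 35 of 217 upstream promoters (16.1%) had no peak in Q7SST, against 11.2% of CpG-poor promoters of other genes. Among CpG-rich promoters the shares were 5.42% downstream, 6.44% upstream and 3.58% in other genes. CpG-poor downstream promoters were also weaker in Q111SST (median percentile 62.5) than CpG-poor upstream promoters (72.0) and those of other genes (80.7), and the part of this in the result was not tested. On the upstream side of the compound lists the CpG-rich and CpG-poor shares were 20.7% and 20.3% for cyproheptadine, 14.00% and 10.6% for loxapine, 16.4% and 13.8% for DKI and 4.00% and 8.76% for meclizine. In other genes they were 12.7% and 14.6%, 8.83% and 7.46%, 9.51% and 12.3%, and 2.17% and 4.59%, in the same order. On the downstream side they were 10.8% and 28.0% for cyproheptadine, 12.3% and 13.6% for loxapine, 11.3% and 26.3% for DKI and 2.46% and 14.2% for meclizine. CpG-poor downstream promoters thus had a higher share than CpG-poor promoters of other genes in each of these lists.

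To see whether the direction of the comparison mattered, the rule was applied to Q7SST and the genes were followed in Q111SST. This also gave 667 genes, of which 506 (75.9%) were shared. Now 81 upstream promoters (12.1%, 9.88% to 14.8%) and 133 downstream promoters (19.9%, 17.1% to 23.1%) had no peak in Q111SST. The share of all Q7SST promoters of coding genes without a peak in Q111SST was not counted. These shares can therefore be compared with each other but not with a background. Between the 50th and 75th percentile of Q7SST strength, the shares were 11.5% upstream (7.79% to 16.7%) and 15.3% downstream (11.1% to 20.8%), with overlapping intervals. Below the 25th percentile the upstream share was the higher, 69.2% against 50.0%. Between the 25th and 50th the shares were 26.8% upstream and 43.9% downstream, and above the 75th 5.68% and 6.25%. Downstream promoters were also the weaker in Q7SST, with a median percentile of 69.0 against 76.8. Over all strengths, downstream promoters were thus lost more often in both directions, but not in each band. Between the 50th and 75th percentile the intervals were separate only for genes chosen in Q111SST.

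Promoters covered in all 5 mutant lists and not in Q7SST numbered 18 upstream (2.70%) and 43 downstream (6.45%), against 257 of 11789 promoters of coding genes (2.18%). In 11 and 29 of these genes the other promoter was covered in all 6 lists, so that Q7SST had a peak at 1 promoter only. In 7 and 21 of them Q7SST had no peak within 1 kb of the missing start.

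For the upstream side, Tdrd7 had no peak over the upstream start in Q7SST, where the nearest peak was 6408 bp away. Its upstream percentiles were 80.1 in Q111SST, 85.7 under cyproheptadine, 86.5 under loxapine, 83.1 under DKI and 83.3 under meclizine. The downstream promoter was at 80.8 in Q7SST, 82.0 in Q111SST, 83.5 under cyproheptadine, 86.3 under loxapine, 80.9 under DKI and 79.5 under meclizine. The 2 promoters of Tdrd7 were thus of like strength in the mutant lists, and only the TATAAA-bearing upstream one lacked a peak in Q7SST. Sept9, which encodes a filament-forming septin, had no peak within 7312 bp of its upstream start in Q7SST. That start was at 66.1 in Q111SST, 61.7 under cyproheptadine, 70.4 under loxapine, 56.8 under DKI and 65.7 under meclizine. Cdk19, a kinase of the Mediator complex, had no Q7SST peak within 8504 bp of its upstream start (64.2 in Q111SST), while its CpG-rich downstream promoter lay between 92.6 and 99.2 in the 6 lists. For Rapgef2 and Tank (a regulator of NF-kB signalling) the nearest Q7SST peak was 786 bp and 702 bp away, so that these starts were not covered but lay close to a peak.

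For the downstream side, Arhgap28 had no Q7SST peak within 44908 bp of the downstream start. The downstream percentiles were 77.6 in Q111SST, 70.3 under cyproheptadine, 75.6 under loxapine, 74.3 under DKI and 75.1 under meclizine. The upstream promoter was also lower in Q7SST, at 69.5, than in Q111SST (96.2), cyproheptadine (95.3), loxapine (99.0), DKI (90.0) and meclizine (91.3). Both ends of Arhgap28 were thus weaker in the wild-type list. Amz2 had no Q7SST peak within 13215 bp of its downstream start, which lay at 86.8 in Q111SST and between 57.5 and 76.2 with the compounds. Its upstream promoter was at 96.3 in Q7SST and 92.6 in Q111SST. Cacnb2, a calcium channel beta subunit, and Lrrc8d, a volume-regulated anion channel subunit, lacked Q7SST peaks within 5429 bp and 30410 bp of downstream starts that stood at 75.8 and 75.5 in Q111SST.

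Gramd1c differed between Q7SST and the mutant lists at both ends. The upstream percentile was 92.0 in Q7SST, 49.1 in Q111SST, 16.3 under cyproheptadine, 33.1 under loxapine, 33.5 under DKI and 40.1 under meclizine. The downstream promoter was at 94.0 in Q111SST, 88.5 under cyproheptadine, 86.0 under loxapine, 90.2 under DKI and 93.7 under meclizine, and had no peak over its start in Q7SST. The downstream promoter was therefore the stronger in each mutant list. A Q7SST peak ended only 10 bp from the downstream start, so the start was not covered but was not without mark, and which promoter was stronger in Q7SST was not measured.

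Which promoter was the stronger could also change while both kept a peak. Against Q111SST, the stronger promoter switched in 90 of 475 genes in Q7SST (18.9%, 15.7% to 22.7%), 67 of 416 under cyproheptadine (16.1%), 57 of 503 under loxapine (11.3%), 61 of 444 under DKI (13.7%) and 53 of 564 under meclizine (9.40%). The switches ran almost evenly in both directions, 42 to downstream and 48 to upstream in Q7SST. They were mostly between promoters of nearly equal strength, since the median absolute difference in Q111SST was 6.63 points in genes that switched in Q7SST and 17.5 points in those that did not. Requiring a margin of 10 points in both lists left 13 genes of 475 in Q7SST, 8 to downstream and 5 to upstream. It left 5 and 3 genes under cyproheptadine, 2 and 2 under loxapine, 4 and 4 under DKI and 1 and 0 under meclizine.

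Changes of single promoters by over 10 percentile points were set against the background of all promoters of coding genes. In Q7SST, 84 upstream promoters (13.9%) and 119 downstream promoters (22.7%) were lower than in Q111SST, against 12.2%, and 57 (9.45%) and 76 (14.5%) were higher, against 7.70%. DKI had 231 upstream (41.0%) and 237 downstream promoters (45.4%) lower, near the background of 39.8%, and 5.68% and 4.79% higher, against 2.70%. Cyproheptadine had 27.9% and 33.8% lower, against 26.9%, and 3.21% and 3.69% higher, against 2.40%. For loxapine 12.05% and 11.6% were lower, against 9.90%, and 6.71% and 11.2% higher, against 5.33%. For meclizine 10.5% and 15.1% were lower, against 9.78%, and 5.71% and 6.88% higher, against 3.82%. Shares of upstream and of downstream promoters were above the background in both directions in each of the 5 lists, some of them only slightly. The upstream shares that were lower under cyproheptadine, DKI and meclizine lay near it. The background was not matched for strength. Its promoters had a median Q111SST percentile of 82.3, against 77.6 upstream and 71.1 downstream, and the part of this in the shares was not tested.

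Over the 316 genes with both promoters covered in all 6 lists, the upstream promoter was the stronger in all 6 in 110 genes and the downstream promoter in 73. In 55 and 29 of these the difference exceeded 10 points in every list. The order was mixed in 133 genes (42.1%). In 25 genes the 5 mutant lists had one order and Q7SST the other, and in 3 genes all 4 compound lists had the order opposite to Q111SST.

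Among genes covered at both ends in all 6 lists, those with the largest relative change between Q7SST and Q111SST differed mostly at 1 promoter. For Nck1, an adaptor that links tyrosine kinase receptors to actin, the downstream percentile was 25.2 in Q7SST, 90.9 in Q111SST, 73.8 under cyproheptadine, 87.0 under loxapine, 83.1 under DKI and 95.9 under meclizine. The upstream promoter of Nck1, 39.3 kb away, was at 91.8 in Q7SST and Q111SST, 87.8 under cyproheptadine, 94.0 under loxapine, 84.4 under DKI and 92.0 under meclizine. The starts were at 100546134 and 100506856 on the minus strand of chromosome 9, and the transcripts of these promoters have different first codons. Heatr5a (chromosome 12, minus strand, starts at 51971321 and 51947304) had the same form, with upstream percentiles from 94.7 to 97.6 in the 6 lists. Its downstream promoter was at 16.9 in Q7SST, 59.6 in Q111SST, 20.2 under cyproheptadine, 73.6 under loxapine, 40.8 under DKI and 41.9 under meclizine. The cyproheptadine value thus lay near that of Q7SST, and the loxapine value above Q111SST.

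Exph5, an effector of Rab27 in secretion, had a downstream percentile of 55.4 in Q7SST, 95.6 in Q111SST, 88.2 under cyproheptadine, 89.0 under loxapine, 93.4 under DKI and 98.5 under meclizine. Its upstream promoter was at 84.1 in Q7SST, 75.1 in Q111SST, 66.5 under cyproheptadine, 72.6 under loxapine, 77.2 under DKI and 79.8 under meclizine. The stronger promoter was therefore upstream in Q7SST (start at 53301670 on chromosome 9) and downstream (start at 53341084) in each of the 5 mutant lists. Zc3h12a, which encodes an endoribonuclease that degrades inflammatory transcripts, was at 16.9 downstream in Q7SST, 56.9 in Q111SST and 45.7 to 51.6 with the compounds. The repressor gene Zeb1 was at 11.4 downstream in Q7SST, 69.3 in Q111SST, 54.2 under cyproheptadine, 57.3 under loxapine, 21.8 under DKI and 33.7 under meclizine. Unlike in Nck1, no annotated protein-coding transcript began at the downstream promoter of Heatr5a, Exph5, Zc3h12a or Zeb1.

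In the opposite direction, Il1r1, the interleukin 1 receptor gene, had an upstream percentile of 29.8 in Q7SST, 92.8 in Q111SST, 65.8 under cyproheptadine, 95.8 under loxapine, 93.2 under DKI and 98.1 under meclizine. Its downstream promoter was at 73.1 in Q7SST, 91.4 in Q111SST, 93.9 under cyproheptadine, 88.3 under loxapine, 85.9 under DKI and 84.4 under meclizine. Both starts of Il1r1, at 40225080 and 40266586 on the plus strand of chromosome 1, were lower in Q7SST, the upstream one by more. Gcnt2, which encodes a branching glycosyltransferase of the I antigen, was at 48.2 upstream in Q7SST, 92.3 in Q111SST, 72.6 under cyproheptadine, 83.0 under loxapine, 81.8 under DKI and 90.3 under meclizine. Its downstream values ran from 71.9 in Q7SST to 87.9 under meclizine, and its starts lay at 40859754 and 40917601 on chromosome 13. Rab30, a small GTPase of the Golgi, had a higher downstream promoter in Q7SST, at 59.1, against 29.3 in Q111SST, 32.0 under cyproheptadine, 21.1 under loxapine, 13.2 under DKI and 18.7 under meclizine. The Rab30 upstream promoter lay between 53.5 and 68.5 in the 6 lists. Mcc was at 9.57 upstream in Q7SST, 45.2 in Q111SST, 16.3 under cyproheptadine, 14.0 under loxapine, 23.4 under DKI and 63.6 under meclizine. Its upstream values under cyproheptadine, loxapine and DKI were thus nearer to Q7SST than to Q111SST. Downstream, Mcc was at 75.3 in Q7SST, 67.6 in Q111SST and 60.6 to 68.7 with the compounds. Hoxc6 was at 35.2 upstream in Q7SST, 54.7 in Q111SST and 27.4 to 52.9 with the compounds. Downstream, Hoxc6 was at 50.0 in Q7SST, 24.2 in Q111SST and 45.4 to 62.0 with the compounds, which was nearer to Q7SST. No annotated protein-coding transcript began at the upstream promoter of Mcc or Hoxc6.

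**Figure D5:**
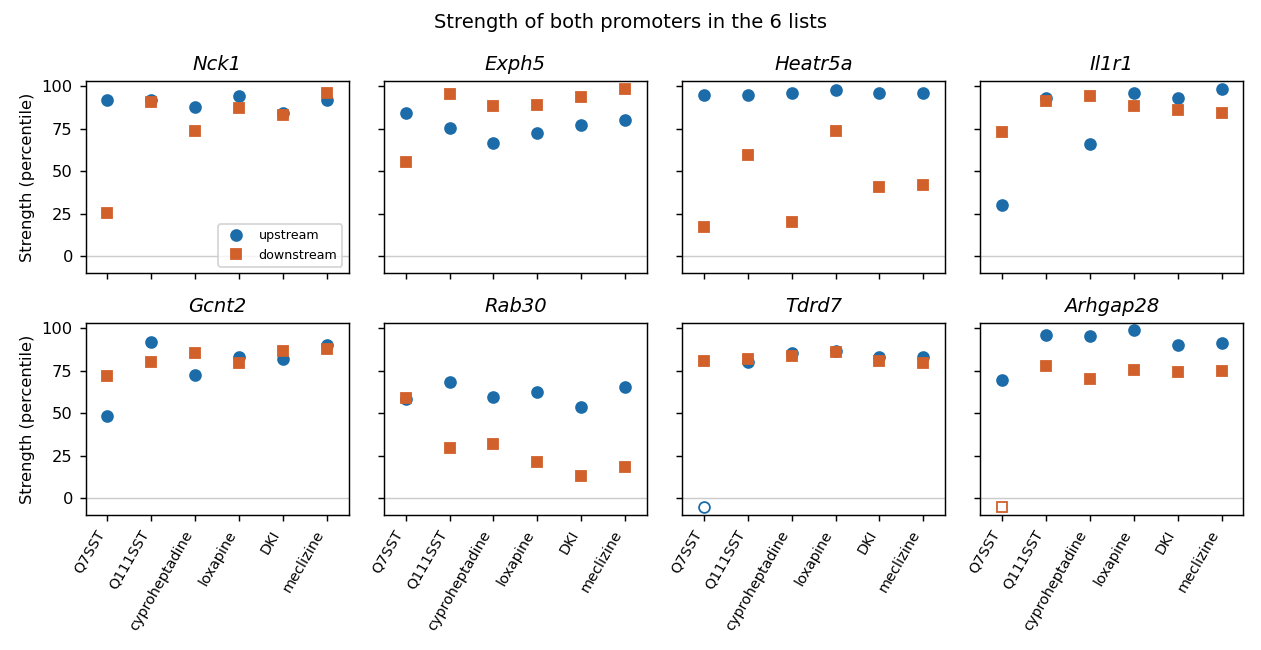
Strength (y axis, percentile within the list) of the upstream (blue circles) and downstream (orange squares) promoters of 8 genes in the 6 lists (x axis). Open symbols under the line at 0 mark a start with no peak over it. Nck1, Exph5 and Heatr5a had their lowest downstream value in Q7SST, Il1r1 and Gcnt2 their lowest upstream value there, and Tdrd7 and Arhgap28 lacked 1 peak in Q7SST.

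With the compounds, the genes with the largest mean relative change against Q111SST were named in the same way. Tmbim1 had a downstream percentile of 49.9 in Q111SST, 12.3 under cyproheptadine, 35.8 under loxapine, 26.6 under DKI and 20.2 under meclizine, and 31.3 in Q7SST, while its upstream promoter stayed between 76.0 and 86.2. Pdzd2 was at 77.3 downstream in Q111SST and 80.1 in Q7SST, and at 55.1 under cyproheptadine, 64.5 under loxapine, 60.6 under DKI and 61.0 under meclizine. Its downstream promoter was thus lower in each compound list than in either vehicle list. In Rora, a nuclear receptor gene, the upstream promoter was at 36.5 in Q7SST, 18.7 in Q111SST, 20.2 under cyproheptadine, 37.1 under loxapine, 33.5 under DKI and 30.3 under meclizine. Its downstream promoter was at 23.7 in Q7SST, 38.1 in Q111SST, 10.1 under cyproheptadine, 38.3 under loxapine, 9.61 under DKI and 41.9 under meclizine. Ptpn18, a tyrosine phosphatase gene, was at 62.5 downstream in Q111SST, 27.4 under cyproheptadine, 62.7 under loxapine, 36.1 under DKI and 59.4 under meclizine. Its upstream promoter was at 72.0 in Q111SST, 76.5 under cyproheptadine, 86.8 under loxapine, 64.8 under DKI and 76.9 under meclizine. The downstream value was thus clearly lower under cyproheptadine and DKI only, and under loxapine the relative change lay upstream.

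Relatively stronger downstream promoters were found in 2 homeobox genes. Hoxb6 was at 0.590 downstream in Q7SST, 18.7 in Q111SST, 33.5 under cyproheptadine, 38.3 under loxapine, 68.6 under DKI and 50.9 under meclizine, and its upstream promoter lay between 54.7 and 65.8. Hoxc6 was at 50.0 downstream in Q7SST, 24.2 in Q111SST, 45.4 under cyproheptadine, 53.6 under loxapine, 62.0 under DKI and 45.5 under meclizine. Hoxb6 and Hoxc6 therefore shared higher downstream values with the compounds, and differed in Q7SST. Tef, a bZIP factor with circadian expression, was at 46.2 upstream in Q111SST, 30.4 under cyproheptadine, 12.2 under loxapine, 11.4 under DKI and 37.0 under meclizine. Urm1, a ubiquitin-like modifier that acts in tRNA thiolation, was at 65.6 upstream in Q111SST, 7.94 under cyproheptadine, 47.7 under loxapine, 48.0 under DKI and 52.2 under meclizine, next to a CpG-rich downstream promoter between 96.8 and 99.1.

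Promoters covered in Q111SST and in no compound list numbered 17 upstream (2.55%) and 36 downstream (5.40%), against 2.05% of all promoters. Only 7 of the 17 and 8 of the 36 were covered in Q7SST, so most were covered in Q111SST alone. Only 4 of the 17 and 10 of the 36 had no peak within 1 kb in any compound list. The upstream promoters with the highest scores were of this near kind. Tnpo1, a nuclear import receptor gene, was at 98.2 upstream in Q111SST and 94.8 in Q7SST, and in the compound lists the nearest peak lay 317 to 497 bp from that start. Vgll4, a cofactor of TEAD factors, was at 87.0 in Q111SST with compound peaks 326 to 378 bp away, and the chaperone gene Hsp90aa1 was at 55.5 with compound peaks 109 to 125 bp away, and a Q7SST peak 114 bp away. On the downstream side, Tnfaip8 was at 81.6 in Q111SST with compound peaks 263 to 368 bp away, and Kctd1 at 67.6 with compound peaks 31 to 366 bp away. For Psma6, a proteasome subunit gene at 57.6 downstream in Q111SST, the nearest peak lay 197 to 463 bp away under 3 compounds and 7477 bp away under DKI. The downstream starts of Kctd1 and Psma6 were not covered in Q7SST either, where the nearest peak lay 337 and 7402 bp away.

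Genes known for alternative promoters were counted from lists chosen for that property, so that a high share was built into them. Of 15 marked textbook genes, 6 qualified, and none of the following counts supports more than a description. Bdnf, a neurotrophin gene with many 5′ exons, was at 64.5 upstream in Q7SST, 65.2 in Q111SST, 71.0 under DKI and 62.6 under meclizine, and the nearest peak under cyproheptadine and loxapine ended 98 and 99 bp from the start. Its downstream promoter was at 69.9 in Q7SST, 65.2 in Q111SST, 65.8 under cyproheptadine, 72.2 under loxapine, 65.4 under DKI and 58.8 under meclizine. Both Bdnf promoters were thus of like strength. Runx1, a transcription factor gene with a distal and a proximal promoter, had its stronger peak downstream in 5 lists and upstream under DKI, where the upstream promoter was at 78.2 and the downstream one at 67.4. Gnas, an imprinted gene of the stimulatory G protein, was at 13.2 upstream in Q7SST and 33.9 in Q111SST, against 75.6 and 86.2 downstream. The others were Tcf7l2 (at 63.1 upstream and 87.6 downstream in Q111SST), Esr1 (60.8 and 47.2) and Crem (86.5 and 73.6).

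Other lists were of genes with several long isoforms. The cytoskeleton and scaffold list had 10 of 24 marked genes, among them Dst, Ank2, Sptbn1, Tns1 and Plec. The transcription factor list had 9 of 19, the signalling list 12 of 22, the synaptic list 2 of 13 and the imprinted list 1 of 7. Dlc1, a GTPase-activating protein gene, was at 32.6 upstream in Q7SST, 93.2 in Q111SST, 85.7 under cyproheptadine, 89.0 under loxapine, 80.9 under DKI and 88.6 under meclizine. Its upstream value in Q7SST was thus far below the 5 mutant lists, while the downstream promoter was at 89.1 in Q7SST and 81.3 in Q111SST. Ank2, a membrane scaffold gene, was at 25.2 upstream in Q7SST, 55.5 in Q111SST, 65.2 under cyproheptadine, 65.6 under loxapine, 43.0 under DKI and 57.3 under meclizine. Sptbn1, a spectrin gene, had no Q7SST peak within 11066 bp of its downstream start, which was at 68.9 in Q111SST. Of the 12 marked genes of the disease and study list only Dgkh, a diacylglycerol kinase gene, qualified, at 56.2 upstream and 40.6 downstream in Q111SST. Its upstream promoter was at 56.7 in Q7SST, 34.8 under DKI and 54.9 under meclizine, with no peak over the start under cyproheptadine and loxapine (nearest 156 and 125 bp away). The downstream promoter of Dgkh lay between 15.9 under loxapine and 44.7 under meclizine.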

How the data were processed

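Per the submitters' processing notes, reads were handled with Trimmomatic 0.36, Bowtie2, SAMtools 1.3 and MACS2 on mm10. Chromatin was digested with micrococcal nuclease and sequenced as single-end reads. Thresholds and any input control are not given in the sources used here. The deposited files gave each peak's position and the authors' score, a whole number of unstated scale whose lowest value was 10 in each list. Reads behind a peak were not used here, so the depth is unknown. GENCODE M21 on GRCm38 gave the starts, and no peak on chromosomes 1 to 19 ran past the end of its chromosome. Coordinates count from 1.

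A start was covered when a peak lay over it. Strength was the mid-rank percentile of the score within its list, and a promoter had changed at over 10 percentile points. Shares have 95% Wilson intervals. Members and lists were chosen with earlier results of these data known. Named genes, other than those beside the distance limit, had peaks that covered no other coding gene's start. They were the 5 genes per direction with the largest change of the upstream minus downstream percentile in Q7SST, and the 4 per direction over the compounds. Also named were, per side, the 5 strongest Q111SST promoters missing only in Q7SST and the 3 missing with every compound, the 5 genes with most peaks, the 3 widest, and genes of 7 prepared lists. Alternatives covered the transcripts used, the score threshold, list size, distance to the peak and other promoter definitions. The counts were tested on simulated data. Python 3.11.15, numpy 2.4.6, pandas 2.3.3, pysam 0.24.0 and matplotlib 3.10.9 were used.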

Additional observations from a re-analysis of the deposited data

How the results depend on the processing

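No paired analysis was possible because there was a single list for every condition. Of 138 alternative values, 110 stayed within the interval or count limit of the reported value, 27 moved and 1 changed direction. Ranking among peaks at starts keeps the order of scores, so its 11 values could not change and were not counted. Starts over 10 kb apart, the 2 strongest peaks of a gene, the rule on Q7SST and removal of transcripts with an unfound 5′ end moved none of the values they were run on. The last of these, the subset of genes whose promoters cover no other coding gene, and the bands of Q7SST strength were chosen after seeing the data.

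A score threshold at the pooled median, 47, left 415 genes. The upstream promoter was then stronger in 52.8% in Q111SST, 50.9% under meclizine and 48.5% under cyproheptadine, the last being the change of direction. Both promoters were covered in 79.5% (Q7SST), 56.1% (cyproheptadine), 59.3% (DKI) and 91.8% (meclizine), and switches reached 21.03% (cyproheptadine), 19.5% (DKI) and 12.3% (meclizine). Counting a peak within 1 kb as covering a start gave 1205 genes. The upstream promoter was then stronger in 65.7% (Q7SST), 68.9% (Q111SST), 65.3% (cyproheptadine), 66.9% (loxapine), 62.6% (DKI) and 66.02% (meclizine), and both were covered in 68.5% under cyproheptadine and 88.7% under loxapine. With coding transcripts only the upstream share was 50.9% (Q7SST), 52.6% (Q111SST), 52.1% (loxapine) and 52.7% (meclizine), and 70.1% kept both promoters under DKI. With lists of equal size (30758 peaks), both promoters were covered in 69.4% for cyproheptadine and 74.3% for DKI. The shares were then 72.5% for Q7SST and for loxapine and 87.0% for meclizine, within their intervals. DKI thus lay above Q7SST and loxapine, whereas with the full lists it lay below both. Genes with unshared promoters gave 67.6% in Q7SST. What caused the changes was not tested. Unknown depth limits what a missing peak means.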

Other observations

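Genes with the most marked promoters were Tcf4 (6 separate Q111SST peaks over starts), Pde4d, Plec and Sfi1 (5 each), followed by 7 genes with 4, of which Ablim1 was taken first by name. Tcf4, a basic helix-loop-helix factor gene, was at 82.9 at its most upstream start in Q7SST, 93.3 in Q111SST, 91.1 under cyproheptadine, 93.4 under loxapine, 95.9 under DKI and 93.7 under meclizine. Its most downstream start was at 48.2 in Q7SST, 66.6 in Q111SST, 66.5 under cyproheptadine, 76.0 under loxapine, 68.6 under DKI and 64.0 under meclizine. Both outer starts of Tcf4 thus had their lowest percentile in Q7SST. Sfi1 was at 98.0 upstream in Q7SST, 88.1 in Q111SST, 35.0 under cyproheptadine, 89.2 under loxapine, 63.4 under DKI and 95.6 under meclizine. In Ablim1, an actin-binding LIM protein gene, the downstream promoter was the stronger in all 6 lists, from 57.9 in Q7SST to 95.4 under DKI.

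The widest spans were in Ptprd (1762 kb), Magi2 (1474 kb) and Pde4d (1453 kb). Ptprd, a receptor tyrosine phosphatase gene, was at 2.76 upstream in Q7SST, 27.6 in Q111SST, 1.44 under cyproheptadine, 21.1 under loxapine, 4.19 under DKI and 37.0 under meclizine. Its downstream start was at 63.1 in Q111SST, 56.9 under cyproheptadine, 71.3 under loxapine and 81.0 under meclizine, and had no peak over it in Q7SST and under DKI, where the nearest lay 381 bp and 472 bp away.

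Applied to each list in turn, the rule gave 667 genes in Q7SST, 458 under cyproheptadine, 595 under loxapine, 491 under DKI and 661 under meclizine. Of these, 75.9% (Q7SST), 95.9% (cyproheptadine), 87.4% (loxapine), 95.5% (DKI) and 88.0% (meclizine) were among the Q111SST genes, and 350 genes met the rule in all 6 lists out of 923 in any.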
